A study of Mus musculus with 5 samples.

Results

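Chemokine ligands are small secreted proteins that set the direction in which leukocytes move. The genes described here were all those in the deposited expression table whose symbol begins with Ccl, Cxcl, Cx3cl or Xcl followed by a number and at most 1 letter, together with Pf4 and Ppbp, which are chemokines with older names. This gave 40 genes of the 38463 gene symbols in the table, from 41 rows, since Ccl25 had 2 rows that were summed. The RNA came from mouse peritoneal macrophages kept in F12 DMEM with serum, in 2 groups. The knockout group (2 libraries) came from the strain LysMCre-Nrp1fl/fl, with the genotype Nrp1-/-, where Cre is driven by the lysozyme M promoter, active in macrophages, neutrophils and other myeloid cells, and cuts out floxed Nrp1. The wild-type group (3 libraries) had the genotype Wildtype and the strain given as C7/BL6. The labels give no treatment, age, date or batch, and name neither Cre nor floxed alleles for the wild-type, so the loss of Nrp1 and the presence of Cre cannot be told apart. Whether replicates are different mice is not stated, so the p-values cover no more than the spread of these samples, which may be technical.

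Chemokines are grouped by the spacing of their first cysteines into CC, CXC, CX3C and XC proteins, and act through G protein-coupled receptors on leukocytes. CXC ligands with the amino acids Glu-Leu-Arg before the first cysteine call neutrophils through CXCR2, while many CC ligands call monocytes, eosinophils or T cells. Macrophages make some ligands at rest, such as Pf4, Cxcl16, Ccl6 and Ccl9, and others, such as Cxcl1, Cxcl2 and Ccl3, in a burst when NF-kB, the transcription factor of inflammatory signalling, is activated. The product of Nrp1, neuropilin 1, binds semaphorins and VEGF at the cell surface together with their signalling receptors.

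In each of the 5 libraries the Pf4 transcript stood far above its neighbours on the chromosome, and 3 of these neighbours share an NF-kB motif in their promoters. Cxcl5, Ppbp, Pf4, Cxcl3, Cxcl15, Cxcl1 and Cxcl2 lie in that order within 147 kb of chromosome 5 of GRCm38. The 200 bases before the RefSeq start of 4 of them are printed here 5′ to 3′ on the plus strand, from promoter windows of GRCm38.p6. Cxcl1, Cxcl2 and Cxcl3 were chosen as the neutrophil-calling members of this cluster that were high enough to be tested. Pf4 was chosen as the highest member. Capitals mark every match, on either strand, to a form of the NF-kB motif (GGG, then any 3 bases, then TTCC), with overlapping matches drawn as 1 run.
Cxcl1, chr5:90891045-90891244: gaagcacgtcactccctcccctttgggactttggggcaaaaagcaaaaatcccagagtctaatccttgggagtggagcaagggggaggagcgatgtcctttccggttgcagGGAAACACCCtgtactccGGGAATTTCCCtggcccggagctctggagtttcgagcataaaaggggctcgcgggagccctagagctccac
Cxcl2, chr5:90903699-90903898: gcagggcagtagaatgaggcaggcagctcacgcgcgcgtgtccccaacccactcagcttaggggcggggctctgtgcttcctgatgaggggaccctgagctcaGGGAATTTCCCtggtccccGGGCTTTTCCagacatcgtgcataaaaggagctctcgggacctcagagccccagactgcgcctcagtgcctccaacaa
Cxcl3, chr5:90785901-90786100: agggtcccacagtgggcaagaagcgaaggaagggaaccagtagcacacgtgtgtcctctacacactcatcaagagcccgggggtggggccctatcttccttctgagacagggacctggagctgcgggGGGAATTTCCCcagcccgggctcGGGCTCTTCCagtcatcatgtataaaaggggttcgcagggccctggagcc
Pf4, chr5:90772235-90772434: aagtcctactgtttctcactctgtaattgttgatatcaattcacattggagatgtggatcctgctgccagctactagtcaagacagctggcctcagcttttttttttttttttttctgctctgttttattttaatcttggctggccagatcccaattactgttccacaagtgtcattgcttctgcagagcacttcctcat

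The same 11 bases, GGGAATTTCCC, stood 71 to 61 bases before the RefSeq start of Cxcl1, 97 to 87 before that of Cxcl2 and 73 to 63 before that of Cxcl3. The GENCODE annotation starts Cxcl2 at 90903871 and Cxcl1 at 90891241, inside their printed stretches. Distances to those starts are therefore shorter. This run occurred in 14 of 32851 promoter windows of 300 bases (250 before to 50 after a gene start), or 0.0426%. Each of the 3 promoters held a further match: GGAAACACCC at 89 to 80 in Cxcl1, GGGCTTTTCC at 78 to 69 in Cxcl2 and GGGCTCTTCC at 50 to 41 in Cxcl3. The windows of Pf4, Ppbp and Cxcl15 held no match to these letters, and that of Cxcl5 was not analysed here. Of the 40 members 29 had a promoter window, and 7 of these held the motif (Ccl1, Ccl20, Ccl9, Cxcl1, Cxcl10, Cxcl2 and Cxcl3), against 5.56% of all windows. An interferon element, searched as GAAA, any 2 bases and GAAA on both strands, was found in the windows of Ccl19, Cxcl10 and Cxcl14, and in 3.44% of all windows. A match of this kind describes the letters and does not show that a factor binds there.

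Levels are given in FPKM, a unit that divides fragments by the length of the transcript and the size of the library, so that genes of different length can be compared. Of the 40 members 16 reached 1 FPKM in at least 2 libraries and were tested. These were Cxcl1, Cxcl2, Cxcl3, Pf4, Cxcl13, Cxcl14, Cxcl16, Ccl2, Ccl3, Ccl4, Ccl5, Ccl6, Ccl9, Ccl24, Ccl25 and Ccl27a. A further 15 had values of at most 0.870 FPKM, and 9 were listed at 0 in every library (Ccl1, Ccl11, Ccl19, Ccl21a, Ccl21b, Ccl26, Cxcl15, Cxcl17 and Xcl1). Of the 16, 4 averaged over 100 FPKM, 8 between 10 and 100, and 4 between 1 and 10.

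**Figure D1:**
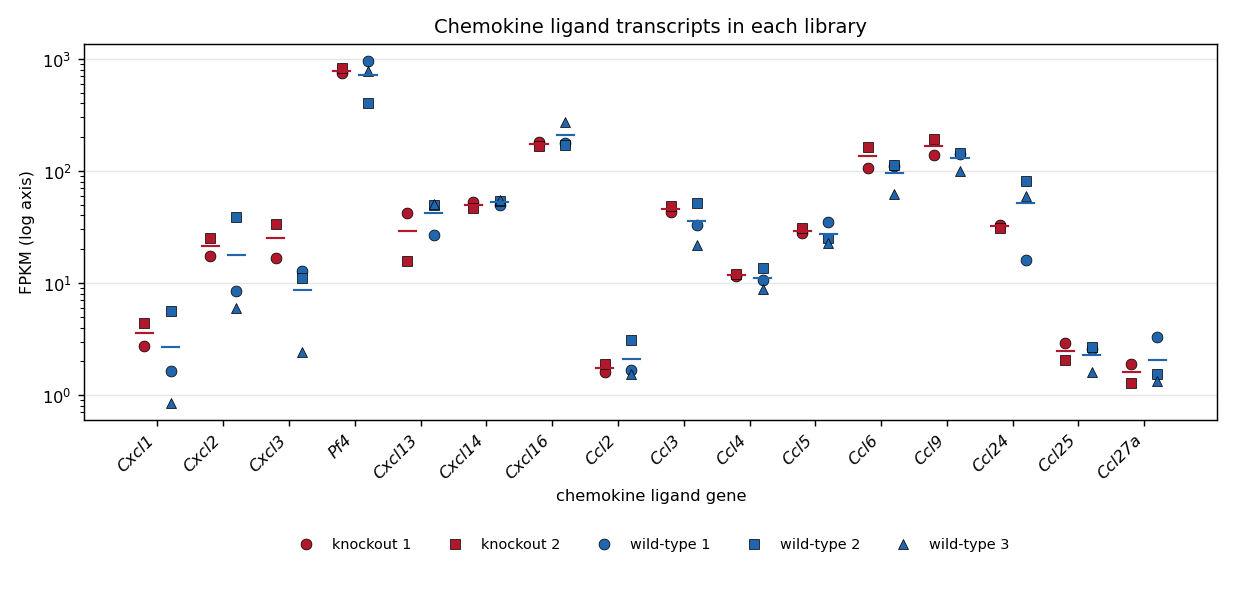
FPKM of the 16 tested chemokine ligands on a log axis, with knockout libraries in red left of wild-type libraries in blue, 1 point per library, and lines at the group means. Pf4 is the highest gene in each library, the wild-type points of Cxcl1, Cxcl2, Cxcl3 and Ccl24 are widely spread, and only for Cxcl3 do both knockout points lie above all wild-type points.

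Facts of the whole table set the limits of the comparison. Summed FPKM ran from 539100 to 629100 per library, with wild-type replicate 3 the highest. The median-of-ratios size factor, a library's typical gene value relative to the mean of the libraries, was 0.80 for wild-type replicate 3. It was 1.04 to 1.07 for the other libraries. The main comparison was not scaled by this factor. Among tested genes, wild-type replicate 3 had a Pearson's r of 0.929 to 0.938 with the other libraries, which had 0.966 to 0.972 among themselves, so the chemokine results that it moves, and the medians of the pathway lists, are also given without it. In that library 2144 rows held another gene's value because its column had been sorted differently, and it was put back in order. None of the 41 chemokine rows was among them. Nrp1 had 7.63 and 7.70 FPKM in the knockout libraries against 24.3, 19.0 and 11.5 in wild-type, a log2 fold change of -1.09 ± 0.32 (SE) with a limma adjusted p of 0.93. Macrophage markers were present, with Emr1, which encodes F4/80, at 222 and 183 FPKM in knockout and 201, 215 and 195 in wild-type libraries, and Csf1r at 943 and 793 against 765, 864 and 1108. The 9 macrophage markers summed to 8482 and 8648 FPKM in knockout and 5796, 6047 and 6393 in wild-type libraries, a gap set by Lyz1 (4680 and 5154 against 2361, 2071 and 832.4), and its part in the chemokine values was not tested.

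No chemokine ligand passed the test between genotypes. By limma over all 12214 tested genes, 0 of 16 members were higher in the knockout at an adjusted p under 0.05, against 0.0409% of all tested genes, and 0 were lower, against 0.0164% (0.0573% in either direction). At an unadjusted p under 0.05 there was 1 higher member, Cxcl3, against 1.19% of all tested genes, and 0 lower, against 0.63% (1.82% in either direction). The groups did not overlap for 1 of 16 members, again Cxcl3 on the higher side, where 13.9% of all tested genes lay apart on the higher side, 6.95% on the lower and 20.8% in all. The fold change was positive for 10 members and negative for 6, with a median of 0.099 on the log2(FPKM + 1) scale, and 63.9% of all tested genes were positive, with a median of 0.106. Adjusted p-values of the members ran from 0.927 to 0.948. With 2 against 3 libraries an exact permutation test of 1 gene, made two-sided by doubling the smaller tail, cannot give a p below 0.2. In bulk RNA, a lower value can come from fewer cells of a type or from less RNA per cell, and these cannot be told apart.

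**Figure D2:**
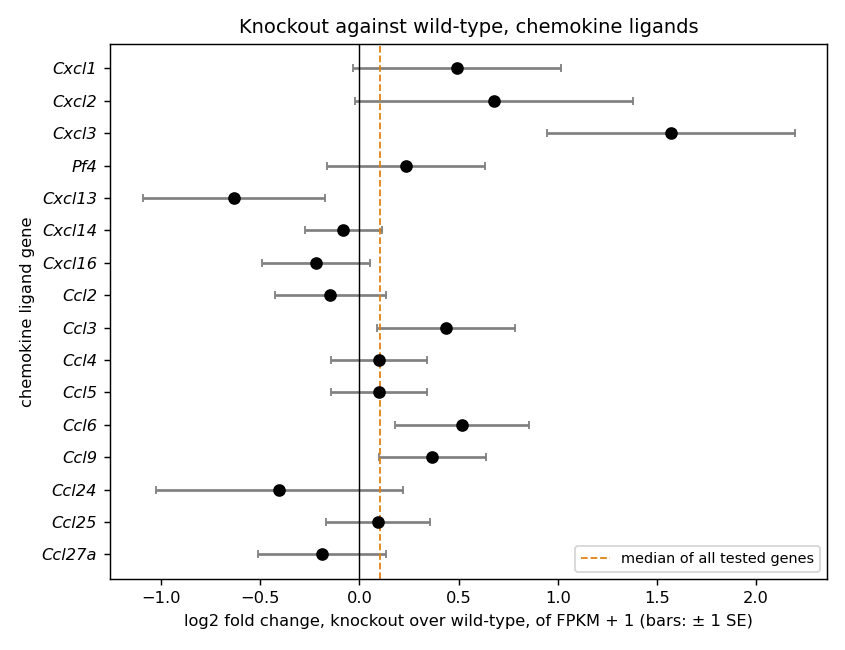
Log2 fold change of FPKM + 1, knockout over wild-type, for the 16 tested chemokine ligands, with bars of 1 SE from limma and a dashed line at the median of all tested genes (0.106). Cxcl3 lies farthest to the right at 1.57, Cxcl13 farthest to the left at -0.63, and no gene passed the adjusted threshold.

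The spread among wild-type libraries was wider for most members than its median over all tested genes. This comparison was not matched for level, and log2(FPKM + 1) narrows the spread of low genes. The SD of log2(FPKM + 1) over the 3 wild-type libraries had a median of 0.477 among the 16 members and 0.327 among all tested genes, and 11 of 16 lay above that overall median. For 11 of 16 members the absolute fold change was smaller than this SD, as it was for 73.6% of all tested genes. Wild-type replicate 3 was the lowest of the 5 libraries for 10 of 16 members (54.2% of all tested genes) and the highest for Cxcl13, Cxcl14 and Cxcl16. Wild-type replicate 2 was the highest of the 5 for 6 of 16 (20.2% of all tested genes).

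**Figure D3:**
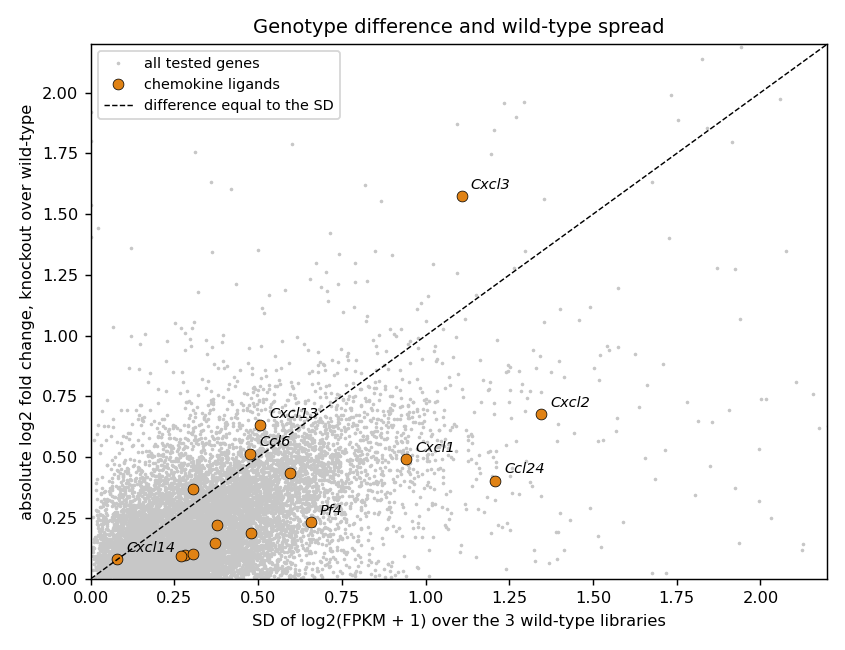
Absolute log2 fold change between genotypes against the SD of log2(FPKM + 1) over the 3 wild-type libraries, for all tested genes (grey, with 74 genes outside the axes) and the 16 chemokine ligands (orange). Below the dashed line the SD exceeds the fold change, as it does for Cxcl1, Cxcl2, Ccl24 and Pf4, whereas Cxcl3 lies above it.

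Among the ligands of CXCR2, the neutrophil receptor, no gene passed the test. The 2 knockout libraries lay above all wild-type libraries for Cxcl3, as they did for 13.9% of all tested genes, and for Ppbp, which was too low to be tested. Cxcl3 had 16.7 and 33.3 FPKM in the knockout libraries and 12.8, 11 and 2.42 in wild-type replicates 1, 2 and 3. Both knockout values exceeded all wild-type values, and the lowest value by far was that of wild-type replicate 3. Knockout averaged 24.98 ± 11.78 FPKM (SD, n = 2) and wild-type 8.74 ± 5.54 FPKM (SD, n = 3). The log2 fold change was 1.57 ± 0.63 (SE), which missed the threshold (limma unadjusted p = 0.041, adjusted p = 0.93). Without wild-type replicate 3 the log2 fold change was 0.94, and with libraries weighted by their fit it was 0.96. Cxcl3 lies on chromosome 5 at 90786103 to 90789600 of GRCm38.

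Cxcl2, the neutrophil attractant also known as MIP-2, had 17.5 and 25.4 FPKM in knockout and 8.42, 38.9 and 5.96 in wild-type libraries. Wild-type replicate 2 was the highest and wild-type replicates 1 and 3 the lowest, so the knockout libraries lay inside the wild-type range, which spanned 6.52-fold. Its log2 fold change was 0.68 ± 0.70 (SE), and 0.19 without wild-type replicate 3. Cxcl1, the neutrophil attractant KC, had 2.74 and 4.36 FPKM in knockout and 1.65, 5.58 and 0.854 in wild-type libraries, with the same order of libraries as Cxcl2. Its log2 fold change was 0.49 ± 0.53 (SE), and 0.10 without wild-type replicate 3.

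Levels of Cxcl1 and Cxcl2 kept nearly the same ratio in every library, and Cxcl3 did not follow them. Cxcl1 over Cxcl2 was 0.157 and 0.172 in knockout and 0.196, 0.143 and 0.143 in wild-type libraries. Cxcl3 over Cxcl2 was 0.954 and 1.31 in knockout and 1.52, 0.283 and 0.406 in wild-type libraries, so the genotypes overlapped in this ratio. The promoters printed above share the 11-base run in all 3 of these genes. The other ELR ligands were low. Cxcl5 had 0.368 and 0.658 FPKM in knockout and 0.466, 0.186 and 0.0624 in wild-type, and Cxcl15 was listed at 0. Neutrophil markers summed to 72.1 and 98.7 FPKM in knockout and 100, 36.0 and 84.7 in wild-type libraries over 8 genes, mostly from S100a8 and Mmp8, with Retnlg at 0 in every library, Cxcr2 at no more than 0.0319 and S100a9 at no more than 0.757. Their part in the Cxcl3 values was not tested.

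Pf4, the platelet factor that binds heparin and that macrophages also transcribe, was the highest chemokine in each of the 5 libraries. It had 751 and 823 FPKM in the knockout and 956, 400 and 781 in the wild-type libraries. Wild-type replicate 2 was the lowest and wild-type replicate 1 the highest, with both knockout libraries between them. Knockout averaged 787 ± 51.5 FPKM (SD, n = 2) and wild-type 712 ± 284 FPKM (SD, n = 3). The log2 fold change was 0.23 ± 0.40 (SE, limma adjusted p = 0.93), and it turned to -0.14 without wild-type replicate 2. Its mean level was above that of 99.2% of tested genes. Pf4 alone made up 52.3% and 51.3% of the summed chemokine FPKM in knockout and 60.1%, 34.2% and 53.8% in wild-type libraries. The sums themselves were 1434 and 1605 FPKM in knockout and 1591, 1170 and 1452 in wild-type, and without Pf4 they were 683 and 781 against 634, 770 and 671.

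Ppbp, the platelet basic protein gene which ends 2.37 kb before the start of Pf4, was below the filter. It had 0.451 and 0.706 FPKM in knockout and 0.188, 0.291 and 0.153 in wild-type libraries. Both knockout values lay above all wild-type values, at levels that were not tested and for which no share over other genes was counted. The level of Pf4 over that of Ppbp was 1665 and 1166 in knockout and 5094, 1374 and 5118 in wild-type libraries. Platelet and megakaryocyte markers summed to 1.29 and 0.945 FPKM in knockout and 0.856, 1.46 and 0.644 in wild-type libraries over 8 genes, with Gp9 and Gp6 at 0 in all except knockout replicate 2, where they had 0.0456 and 0.0224.

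**Figure D4:**
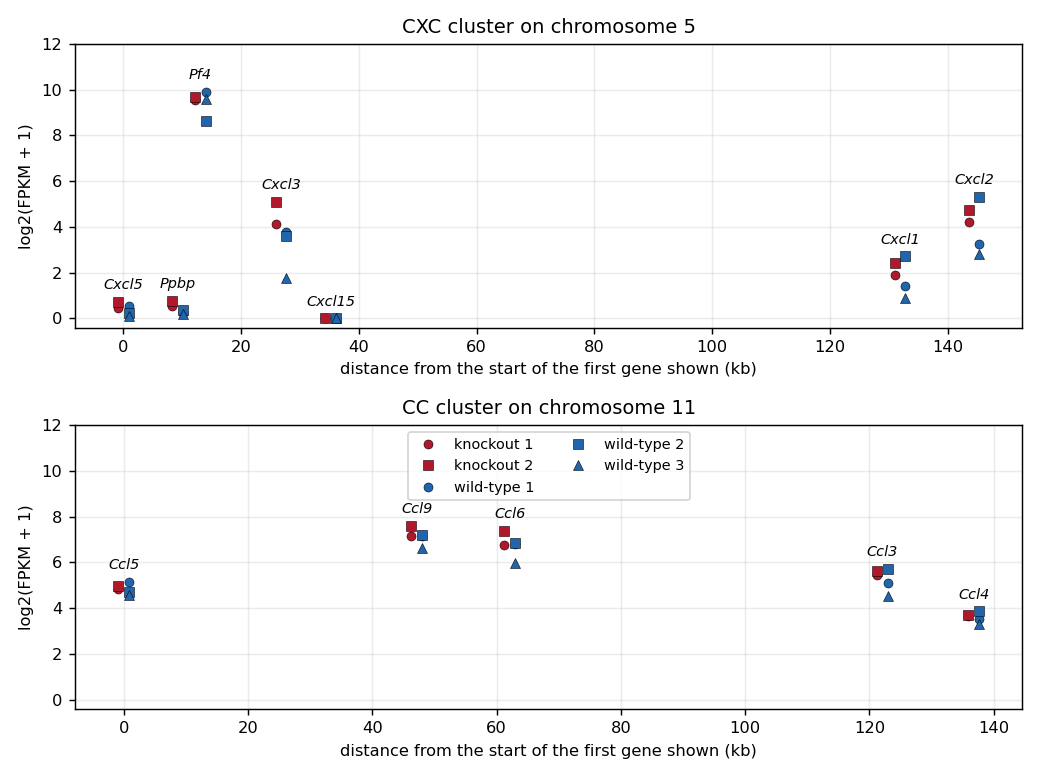
Log2(FPKM + 1) of the members of the CXC cluster on chromosome 5 (upper) and of a CC cluster on chromosome 11 (lower) against distance in kb from the start of the first gene shown, with 1 point per library and knockout drawn slightly left of wild-type. Pf4 stands high between the low Ppbp and Cxcl5 and the intermediate Cxcl3, and Ccl9 and Ccl6 are the highest of the CC genes.

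The interferon-induced ligands of CXCR3, a chemokine receptor found on T cells, lie in a second group of chromosome 5 and were barely detected. Cxcl10 had 0.216 and 0.148 FPKM in knockout and 0.0675, 0.570 and 0.217 in wild-type libraries, with wild-type replicate 2 the highest. Cxcl9 did not exceed 0.0298 FPKM and Cxcl11 did not exceed 0.0160. The promoter window of Cxcl10 held both the NF-kB letters and the interferon element.

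Among the CXC ligands made at rest, Cxcl13 varied within both genotypes and Cxcl14 hardly at all. Cxcl13, which calls B cells through CXCR5 and draws B-1 cells to body cavities, had 42.5 and 15.6 FPKM in knockout and 26.8, 49.3 and 50.7 in wild-type libraries. Knockout replicate 2 was the lowest and knockout replicate 1 lay inside the wild-type range, so the groups overlapped. Its log2 fold change was -0.63 ± 0.46 (SE), and 0.061 without knockout replicate 2. Cxcl14, a ligand conserved among vertebrates whose receptor is debated, had 53.3 and 46.9 FPKM in knockout and 49.9, 53.8 and 55.6 in wild-type libraries. Its wild-type values spanned 1.115-fold, the narrowest range of the 16 members, and its log2 fold change was -0.08 ± 0.19 (SE). Cxcl12, the ligand of CXCR4, lay just below the filter at 0.696 and 0.612 FPKM in knockout and 0.670, 0.870 and 0.646 in wild-type libraries.

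Of the ligands that are made as membrane proteins and shed, Cxcl16 was abundant and Cx3cl1 scarce. Cxcl16, which binds CXCR6 and also takes up oxidized lipoprotein, had 179 and 168 FPKM in knockout and 177, 171 and 274 in wild-type libraries. Wild-type replicate 3 stood apart, and the other 4 libraries lay within 168 to 179 FPKM. The log2 fold change of -0.22 ± 0.27 (SE) became -0.0024 without that library. On the opposite strand Cxcl16 shares 552 exon bases with Zmynd15, which had 17.7 and 10.5 FPKM in knockout and 10.8, 16.0 and 9.08 in wild-type libraries. Whether reads were counted by strand is not given in the sources used here. Cx3cl1, which encodes fractalkine, had 0.0496 and 0.0396 FPKM in knockout and 0.0979, 0.345 and 0.247 in wild-type libraries. Both knockout values were below all wild-type values, at levels under the filter that were not tested. How often this occurs was counted among tested genes alone.

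The inducible CC ligands Ccl3 and Ccl4 followed the library order of Cxcl1 and Cxcl2. Ccl3 (MIP-1 alpha), which acts on CCR1 and calls monocytes, had 43.4 and 48.1 FPKM in knockout and 33.2, 51.4 and 21.9 in wild-type libraries. Ccl4 (MIP-1 beta), an attractant of monocytes and T cells, had 11.5 and 11.9 FPKM in knockout and 10.5, 13.6 and 8.90 in wild-type libraries. For both, wild-type replicate 2 was the highest and wild-type replicate 3 the lowest, with the knockout libraries between them. The log2 fold changes were 0.44 ± 0.35 for Ccl3 and 0.10 ± 0.24 for Ccl4 (SE), and 0.14 and -0.03 without wild-type replicate 3. The order from wild-type replicate 2 down through knockout 2, knockout 1 and wild-type 1 to wild-type 3, singled out after its values were seen, was shared by Cxcl1, Cxcl2, Ccl3 and Ccl4 and by 3.54% of all tested genes.

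**Figure D5:**
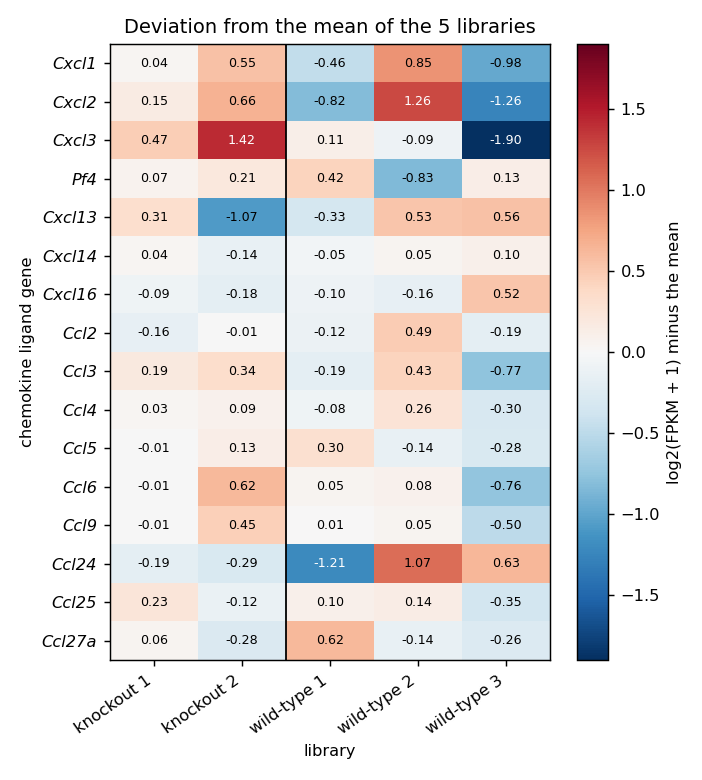
Log2(FPKM + 1) of each tested chemokine ligand minus its mean over the 5 libraries, with the 2 knockout libraries left of the 3 wild-type libraries (red above, blue below the mean). Cxcl1, Cxcl2, Ccl3 and Ccl4 are above their mean in wild-type replicate 2 and both knockout libraries and below it in wild-type replicates 1 and 3.

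Ccl6 and Ccl9, CCR1 ligands found in rodents, were the most abundant CC ligands. They are neighbours on chromosome 11, with Ccl9 at 83572919 to 83578636 and Ccl6 at 83587882 to 83593087 of GRCm38. Ccl9 had 140 and 193 FPKM in knockout and 142, 146 and 99.4 in wild-type libraries, and Ccl6 had 106 and 165 FPKM in knockout and 111, 113 and 62.8 in wild-type libraries. In both genes knockout replicate 2 was the highest and wild-type replicate 3 the lowest, while knockout replicate 1 lay just below wild-type replicates 1 and 2. The level of Ccl6 over that of Ccl9 was 0.759 and 0.852 in knockout and 0.778, 0.776 and 0.631 in wild-type libraries. The log2 fold changes were 0.51 ± 0.34 for Ccl6 and 0.37 ± 0.27 for Ccl9 (SE), and 0.24 and 0.19 without wild-type replicate 3. Ccl5 (RANTES), a T cell and monocyte attractant in the same cluster, had 27.7 and 30.7 FPKM in knockout and 34.7, 25.3 and 22.8 in wild-type libraries, a log2 fold change of 0.10 ± 0.24 (SE).

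Genes for the ligands of CCR2, a receptor of monocytes, were low in these cells. Ccl2 (MCP-1), the main ligand of CCR2, had 1.60 and 1.89 FPKM in knockout and 1.69, 3.08 and 1.55 in wild-type libraries, with wild-type replicate 2 the highest and the other 4 close together. Its log2 fold change was -0.15 ± 0.28 (SE), and 0.068 without wild-type replicate 2. Ccl7 had 0.599 and 0.257 FPKM in knockout and 0.413, 0.453 and 0.146 in wild-type libraries. Ccl12 was listed only in knockout replicate 2, at 0.0659 FPKM, and Ccl8 only in wild-type replicate 1, at 0.0654.

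Ccl24 (eotaxin-2), which calls eosinophils through CCR3, was the CC ligand with the widest wild-type range. It had 33.2 and 30.8 FPKM in knockout and 15.9, 80.8 and 59.3 in wild-type libraries, a span of 5.09-fold within wild-type. The knockout libraries were close to each other and inside that range. Its log2 fold change was -0.40 ± 0.62 (SE), which became 0.049 on leaving out wild-type replicate 2 and -1.09 on leaving out replicate 1 of the same group. Ccl26, the eotaxin gene beside it on chromosome 5, and Ccl11, the eotaxin gene on chromosome 11, were listed at 0 throughout. Eosinophil markers summed to 0.908 and 1.39 FPKM in knockout and 1.36, 1.85 and 1.55 in wild-type libraries over 5 genes, with Epx and Prg2 at 0 in every library. Mast cell markers summed to 36.2 and 19.6 FPKM in knockout and 17.9, 27.3 and 184 in wild-type libraries over 8 genes, the last being wild-type replicate 3, mostly through Tpsb2. In that library Cxcl16, Cxcl13 and Cxcl14 were at their highest and Ccl24 above both knockout libraries. The part of mast cells in these values was not tested.

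The CCR4 ligands of alternatively activated macrophages and dendritic cells stayed under the filter. Ccl22 had 0.476 and 0.379 FPKM in knockout and 0.319, 0.409 and 0.505 in wild-type libraries. Ccl17 was listed at 0 in both knockout libraries and at 0.190, 0.0695 and 0.0781 FPKM in wild-type. Ccl25, a thymic and intestinal ligand of CCR9, had 2.91 and 2.06 FPKM in knockout and 2.56, 2.66 and 1.61 in wild-type libraries, and shares 204 exon bases with Elavl1 on the other strand. Ccl27a, a skin ligand of CCR10, had 1.89 and 1.29 FPKM in knockout and 3.28, 1.53 and 1.32 in wild-type libraries, and shares 8 exon bases with Il11ra1 on the other strand. Ccl27a has a near copy in Ccl27b, listed at 0.106 FPKM in wild-type replicate 1 alone, so reads may be split between them. Ccl20 and Ccl28 did not exceed 0.0319 FPKM.

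Receptors for these ligands gave no called gene. Of 19 signalling chemokine receptors 5 were tested, 4 with a positive and 1 with a negative fold change, 0 called in either direction, and a median of 0.57 on the log2 scale, or 0.29 without wild-type replicate 3, where the median of all tested genes was 0.016. Cx3cr1, the receptor of the Cx3cl1 product, had 7.72 and 4.90 FPKM in knockout and 10.8, 18.5 and 19.1 in wild-type libraries (log2 fold change -1.21 ± 0.32 SE, limma adjusted p = 0.93). Both knockout values were below all wild-type values, as they were for 6.95% of all tested genes. Cxcr4, the receptor of the Cxcl12 product, was the highest receptor gene, with 189 and 231 FPKM in knockout and 135, 191 and 67.0 in wild-type libraries. Of the 6 atypical receptors in the table, Ccrl2, which holds the chemoattractant chemerin, was the one tested, with 16.6 and 16.9 FPKM in knockout and 10.9, 22.8 and 12.2 in wild-type libraries.

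Genes that regulate the ligands or their transcripts had 0 called members as well. Genes for NF-kB subunits, their inhibitors and the activating kinase complex (16 tested, 8 positive and 8 negative) had a median log2 fold change of 0.018. Without wild-type replicate 3 it was -0.043. The kinase gene Chuk had 13.8 and 12.6 FPKM in knockout and 12.7, 12.4 and 4.20 in wild-type libraries. The subunit gene Rel had 6.40 and 6.05 against 4.49, 7.60 and 2.30. In 7 of the 16 genes of this list the row of wild-type replicate 3 had been put back in order. Inflammatory genes that NF-kB induces (9 tested, 8 positive and 1 negative) had a median of 0.40, and 0.12 without that library. Il1a, an interleukin 1 gene, had 6.16 and 8.14 FPKM in knockout and 4.32, 3.999 and 1.60 in wild-type libraries, and Ptgs2, the inducible prostaglandin synthase gene, had 3.82 and 4.03 against 2.52, 2.73 and 1.15. Both had knockout values above all wild-type values, as had 13.9% of all tested genes, with wild-type replicate 3 the lowest. The groups did not overlap for 3 of the 9 tested genes of this list, against 20.8% of all tested genes in either direction. Interferon regulators (9 tested, 8 positive and 1 negative) had a median of 0.32, and 0.03 without wild-type replicate 3, with Irf7 at 53.6 and 54.7 FPKM in knockout and 32.6, 20.5 and 62.1 in wild-type libraries.

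Factors that control the stability of AU-rich and other inflammatory transcripts included 7 tested genes, 4 positive and 3 negative. Several chemokine mRNAs are AU-rich. Most of these factors promote decay, but the product of Elavl1, among the positive genes, stabilizes such transcripts. The list had a median log2 fold change of 0.34, which turned to -0.093 without wild-type replicate 3. Zfp36l2 had 73.8 and 89.2 FPKM in knockout and 61.3, 98.3 and 11.4 in wild-type libraries, and Khsrp had 27.5 and 23.3 against 23.0, 26.8 and 5.58. In both it was wild-type replicate 3 that stood low. Proteases that shed or trim chemokines (7 tested, 5 positive and 2 negative) had a median of 0.53, and 0.15 without that library. Adam10, which sheds Cxcl16 and Cx3cl1 products, had 30.6 and 29.5 FPKM in knockout and 27.99, 26.0 and 9.07 in wild-type libraries, and the collagenase gene Mmp8 had 28.2 and 40.2 against 34.98, 12.8 and 11.1.

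Markers of the remaining cell types that make chemokines included 0 called genes. Mesothelial and fibroblast markers summed to 31.5 and 24.4 FPKM in knockout and 60.3, 57.5 and 25.6 in wild-type libraries over 11 genes, with Msln and Upk3b at no more than 0.167. Dendritic cell markers summed to 42.4 and 39.0 FPKM in knockout and 46.7, 55.3 and 39.4 in wild-type, mostly Itgax, which macrophages share, with Flt3 at no more than 0.0317. B cell markers summed to 9.62 and 10.8 FPKM in knockout and 9.19, 6.85 and 9.74 in wild-type libraries. Endothelial markers summed to 4.22 and 3.14 FPKM in knockout and 3.60, 2.96 and 2.43 in wild-type, and T and NK cell markers to 0.554 and 0.435 in knockout and 0.518, 0.198 and 0.416 in wild-type. Their part in the chemokine values was not tested.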

How the data were processed

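Libraries for Ion Torrent sequencing were made from poly(A) RNA, per the labels' protocols. The submitters' processing notes list Torrent Suite 4.4, the Whole Transcriptome Analysis Plugin 4.2-r7, Bowtie2, Cufflinks, TopHat2 and the build mm10. Per the file headers, the authors deposited 1 FPKM value per gene and library. Values are model estimates, so depth is unknown and a listed 0 can be a failed estimate. Another 17 columns were left aside.

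The column of wild-type replicate 3 followed a sort that counts hyphens, whereas the gene names followed a sort that ignores them. Its values were moved back to the rows of their own genes. In the 722 expressed displaced rows Pearson's r across genes with the other libraries was then 0.916, against 0.171 as deposited. Rows named by a number (27) or differing in case (50) were left out, and rows of 1 symbol were summed. The comparison of knockout with wild-type used log2(FPKM + 1), which understates changes of low genes, in limma 3.58.1 (R 4.3.3), with genotype as the single term, trended variances and Benjamini-Hochberg adjusted p-values over the 12214 genes with at least 1 FPKM in at least 2 libraries. The fit was tested on simulated data. All 16 members averaging at least 1 FPKM are given per library; from each pathway list the 2 tested genes of smallest p are named, except some that are not reported here. Members and lists were chosen with earlier results of these data known. Coordinates come from GENCODE M21 on GRCm38, which matched all 40 members, and promoters from RefSeq. Alternatives covered scaling, pseudocount, filter, library weights, row order, a replicate block and leaving out each library.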

Additional observations from a re-analysis of the deposited data

How the results depend on the processing

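The count of chemokine ligands called by limma was 0 in each direction under all 14 alternatives, and their median log2 fold change ran from -0.012 to 0.22. Over the whole table, genes called higher in the knockout numbered 5 as reported, 1 with a filter at 5 FPKM, 12 with library weights, 1 with no filter, 2 in the order as deposited, 3 with a pseudocount of 0.1 and 3 with the replicate block. Genes called lower numbered 2 as reported, and 1, 9, 0, 1, 2 and 1 in the same settings. Leaving out 1 library gave 0 to 7 higher and 0 to 7 lower, with 0 in both directions without knockout replicate 1 or 2. Nrp1 passed with library weights (-1.43, limma adjusted p = 0.023) and ran from -1.37 to -0.87 with 1 library left out.

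Signs turned for 9 members, none of them called. With library weights the log2 fold change was 0.37 for Ccl24, -0.035 for Ccl25 and -0.12 for Ccl5. With quantile normalization it was -0.071 for Ccl25 and -0.025 for Ccl4, and with median-of-ratios scaling -0.023 for Ccl4 and -0.029 for Ccl5. With the replicate block it was -0.062 for Ccl25, -0.032 for Ccl4 and -0.022 for Ccl5. These estimates equal those without wild-type replicate 3, the only library with that replicate number. With 1 library left out the values ran from -0.27 to 0.068 for Ccl2, -1.09 to 0.049 for Ccl24, -0.083 to 0.27 for Ccl25, -0.36 to 0.085 for Ccl27a, -0.032 to 0.25 for Ccl4, -0.022 to 0.27 for Ccl5, -1.33 to 0.061 for Cxcl13, -0.17 to 0.0074 for Cxcl14 and -0.14 to 0.49 for Pf4. Cxcl3 stayed positive in every setting, from 0.94 to 2.05. The cause of these turns was not tested. Replicate numbers do not show pairing: deviations of knockout and wild-type replicate 1 correlated at -0.051 across genes, and those of replicate 2 at -0.0084; the block left the count of chemokine ligands called at 0. Depth is unknown, so values under 1 FPKM carry no stated precision. Leaving wild-type replicate 3 out of the pathway lists was chosen after seeing the data.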
